A study of Rattus norvegicus with 12 samples.

Results

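The genes described here mark microglia and macrophages, the resident and incoming phagocytes of the brain. They are 32 genes listed by name as markers of these cells, with no threshold on their measured values. The list was chosen with earlier results of these data known, so it is not a blind one. The genes were looked up by symbol in a count table of 18800 distinct gene symbols from rat brain. All 32 were in the table, all had counts, and all passed the filter on low counts that 15487 genes passed. By role they comprised 8 homeostatic microglial genes, 8 genes of sensing and phagocytosis, 7 of adhesion and the leukocyte surface, 4 of intracellular signalling, 3 lineage transcription factors and 2 scavenger receptors of border macrophages.

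Microglia are the tissue macrophages of the brain parenchyma. They depend on CSF1 receptor signalling, survey the tissue through purine and chemokine receptors, and take up debris through receptors such as TREM2 that signal through the adaptor TYROBP. After an interrupted and restored blood supply they multiply and change shape around the lesion, and macrophages from the blood and the brain's borders can enter it. The transcription factor PU.1, product of Spi1, works with IRF8 and RUNX1 to set the identity of these cells.

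The series measured polyadenylated RNA by sequencing in brain tissue of Sprague-Dawley rats, to examine electroacupuncture along the Lung Meridian of Hand-Taiyin after cerebral ischemia and reperfusion. Control rats were restrained and had neither stimulation nor, by their labels, occlusion, although the count columns of this group are headed sham. Model rats had the MCAO/R model, a temporary occlusion of the middle cerebral artery followed by reperfusion, with the same restraint. Electroacupuncture (EA) rats had the MCAO/R model, restraint and stimulation at the Tianfu, Chize, Kongzui and Taiyuan acupoints. The sources used here do not give the sex, the age, the time after reperfusion, the hemisphere or the brain region.

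The labels list 12 samples, 4 per group, and the table held 11 columns, with totals of 8668140 to 11920744 counts. In 3 pairs of columns the counts differed by only 1.34 to 1.40 times the sampling variance, against 4.75 to 26.5 times for the other pairs within a group. Each such pair was summed and counted as 1 sample. The comparisons thus rest on 8 samples, of which the controls are called A to C, the model samples A and B (both summed from 2 columns) and the EA samples A to C (B summed from 2 columns). The letters are names only. Levels are given in CPM (counts scaled to a common library total) after TMM scaling, and adjusted p-values come from edgeR's quasi-likelihood test with Benjamini-Hochberg adjustment over all 15487 genes. No label says whether 2 samples are 2 rats, so a p-value here weighs a difference only against the sample-to-sample spread, and that spread could be technical. Of the members 20 had only whole counts and 12 had fractional estimates, the values of Itgb2, Cd14, Cd53, Fcgr2b, Cd4, Csf3r and Dock2 being fractional in every column. Gene lengths were not used, so the level of one gene was not compared with that of another, and a summed level over a marker list weighs its abundant genes most.

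Model A and EA A stood apart from the other 6 samples in the microglial genes, and both of them and model B differed from the controls in genes that mark brain regions. The summed level of 8 striatal marker genes was 149 to 345 CPM in the controls, 691 in model A, 318 in model B, 4664 in EA A, 308 in EA B and 156 in EA C. The 6 measured hippocampal markers summed to 393 to 438 CPM in the controls, but to 131 in model A, 104 in model B and 118 in EA A, against 354 in EA B and 327 in EA C. The summed level of 8 neocortical markers was 149 to 167 CPM in the controls and 740 in model B, with 242 in model A, 245 in EA A, 189 in EA B and 168 in EA C. None of these markers was at 0 in any sample. The 2 model samples and EA A therefore differed from the controls and from each other in region markers, and the part of this difference in the results below was not tested. The member medians and the numbers of members higher are given with and without model A and EA A. The 8 neuronal markers, which check the tissue, summed to 3822 CPM in EA A and 10120 CPM in model B, the extremes of the 8 samples.

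The start-site regions of 4 members are shown first because PU.1 is the factor that defines this lineage. These 4 hold the PU.1 letters and were higher in both model samples than in every control, so they are a selected set. Of the 32 members, 21 matched an entry in the RefSeq promoter table (build GRCr8), which holds 250 bases before to 50 bases after each gene start. The letters GAGGAA, the core of the PU.1 site, were searched on both strands, and 13 of the 21 windows held them, against 27.6% of 33469 promoter windows of the same length. The longer form GAGGAAGT, which contains the first motif, was in 2 of the 21 (Cd53 and Inpp5d), against 2.42% of all windows. The RUNX letters TGTGGT were in 4 of the 21 (Cx3cr1, Dock2, Gpr34 and Itgam), against 17.3%, and the interferon-stimulated response element was in 1 (Apbb1ip), against 3.92%. In the sequences, written 5′ to 3′ on the strand of the gene, capitals mark GAGGAA or its reverse complement. Trem2 lies at chr9:20151730-20152029 (minus strand), Cd53 at chr2:197087847-197088146 (minus strand), Dock2 at chr10:19748920-19749219 (minus strand) and Inpp5d at chr9:95735283-95735582 (plus strand).
Trem2: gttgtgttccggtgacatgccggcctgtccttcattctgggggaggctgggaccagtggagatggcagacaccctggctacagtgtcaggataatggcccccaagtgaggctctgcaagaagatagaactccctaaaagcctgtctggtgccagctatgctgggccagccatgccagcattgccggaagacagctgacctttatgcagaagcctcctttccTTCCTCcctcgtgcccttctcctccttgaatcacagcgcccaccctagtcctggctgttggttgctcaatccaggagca
Cd53: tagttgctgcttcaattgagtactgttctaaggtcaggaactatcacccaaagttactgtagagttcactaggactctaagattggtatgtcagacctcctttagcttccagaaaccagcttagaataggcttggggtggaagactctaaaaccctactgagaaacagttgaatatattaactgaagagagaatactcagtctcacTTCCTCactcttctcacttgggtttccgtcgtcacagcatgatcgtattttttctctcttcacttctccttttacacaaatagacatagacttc
Dock2: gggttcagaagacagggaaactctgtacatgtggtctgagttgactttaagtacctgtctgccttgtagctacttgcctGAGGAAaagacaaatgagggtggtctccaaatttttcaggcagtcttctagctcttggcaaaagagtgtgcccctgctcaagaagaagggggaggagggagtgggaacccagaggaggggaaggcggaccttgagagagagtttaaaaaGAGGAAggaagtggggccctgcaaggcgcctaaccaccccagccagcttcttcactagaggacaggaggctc
Inpp5d: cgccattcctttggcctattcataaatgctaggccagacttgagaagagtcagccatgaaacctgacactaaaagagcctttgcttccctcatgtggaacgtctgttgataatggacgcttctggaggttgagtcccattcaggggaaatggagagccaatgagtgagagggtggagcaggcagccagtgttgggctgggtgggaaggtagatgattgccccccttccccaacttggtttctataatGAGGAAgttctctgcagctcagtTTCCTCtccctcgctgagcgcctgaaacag
The match in Trem2 begins 29 bases before the start and that in Cd53 begins 44 before it. Dock2 holds a pair of matches, which begin 171 and 22 bases before the start, and Inpp5d holds one that begins 3 bases before the start and another inside the transcribed part. A match is a run of letters and not a measured binding site. Among the other matched members, Csf1r, Csf3r, Gpr34 and Laptm5 also held GAGGAA and did not overlap the controls in the model. Cd14, Cd68, Itgam, Mrc1 and Ptprc held it too, but their model and control levels overlapped. Without GAGGAA, Cx3cr1, P2ry13, Apbb1ip and Runx1 were higher with no overlap, while Olfml3, Mertk, Irf8 and Cd163 overlapped. Whether a match goes with a higher model level was not tested.

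In the model samples every member had a higher mean level than in the controls, but no single member passed the test. All 32 members were higher in the fitted model against control difference, with a median log2 difference of 1.06, where 51.5% of all tested genes were higher and their median was 0.02. The member differences ran from 0.01 (Mrc1) to 2.5 (Cd68). In 20 of the 32 members (62.5%) both model samples lay above all 3 controls, against 18.2% of all tested genes. By edgeR 0 of the 32 members were called at an adjusted p under 0.05, and 0.00646% of all tested genes were. At an unadjusted p under 0.05, 4 members were higher and 0 lower, which is 12.5% of the members against 13.8% of all tested genes in either direction. Bulk RNA cannot tell more cells of a type from more RNA per cell.

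The 2 model samples contributed unequally. Averaged over the 32 members, model A lay 1.42 log2 units above the control mean and model B 0.43, while the 3 controls lay at −0.09, −0.09 and 0.19. Model A exceeded every control in 31 members and model B in 21, where 36.4% and 32.6% of all tested genes did so. A level of at least 2 times the control mean was reached by 24 members in model A and by 6 in model B. The share of all tested genes at this level is not given here, so these counts have no background beside them. Without model A the median difference was 0.39, and without both model A and EA A it was 0.40, with 24 of the 31 members then tested higher. Leaving out EA A alone left the median at 1.05, and 3 members were then called by edgeR, Tmem119 (adjusted p = 0.0122), Trem2 (0.0465) and Inpp5d (0.0231), as were 3.7% of all genes in that fit. DESeq2 on all 8 samples called 1 member, Runx1 (adjusted p = 0.0282), and 4.93% of all tested genes.

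**Figure D1:**
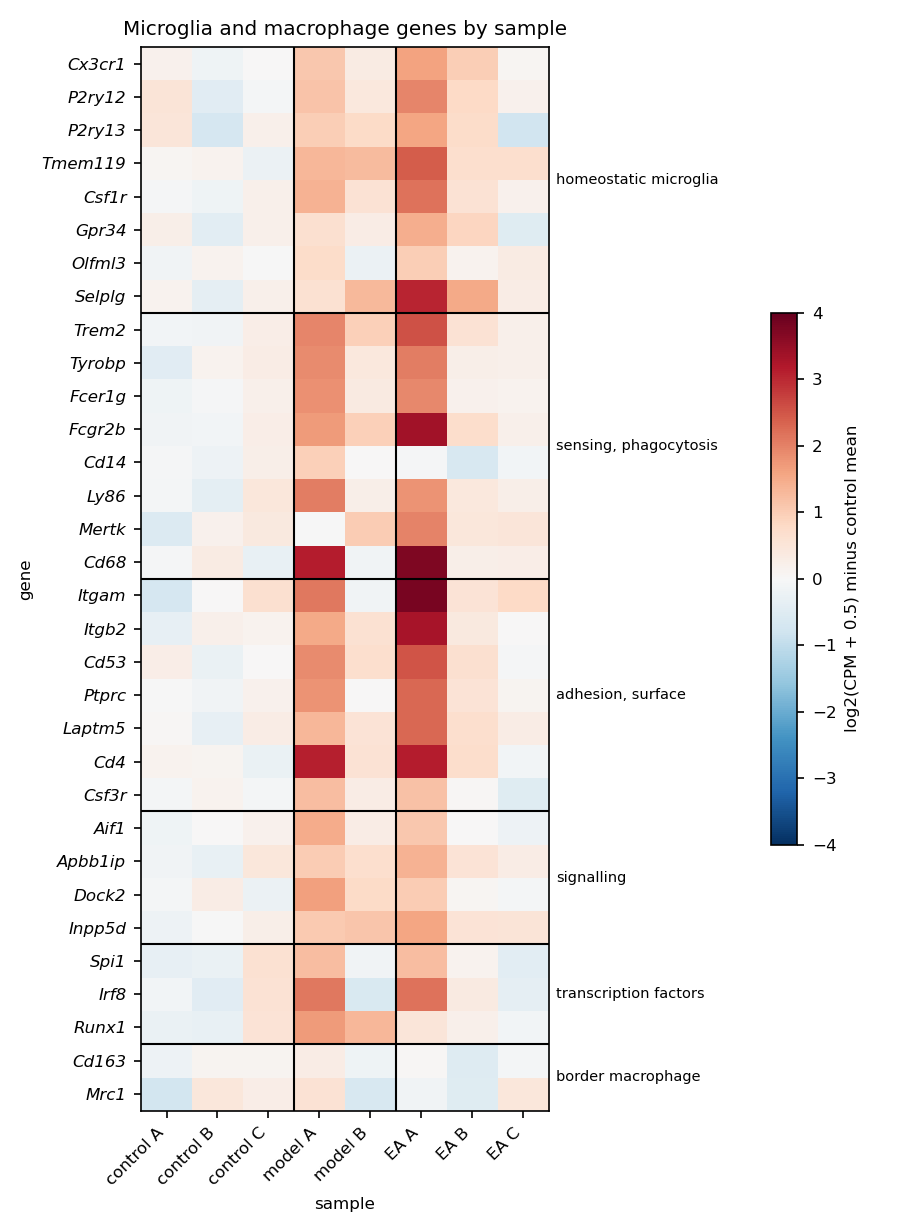
Level of the 32 members in the 8 samples, as the log2 difference of CPM from the mean of the 3 controls; columns are samples, rows are members grouped by role, and colour gives the difference. Model A and EA A carry the highest levels, and 24 of the 32 members had their 2 highest values in these samples.

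The homeostatic genes had higher model means, although none passed the test. All 8 were higher in the fitted difference, with a median of 0.83, and in 6 (75%, against 18.2% of all tested genes) both model samples lay above every control. In model B, P2ry12 was inside the control range and Olfml3 was below it. Tmem119, a surface protein used to tell microglia from other macrophages, measured 9.16, 9.78 and 7.42 CPM in controls A, B and C. The model samples A and B had 22.9 and 21.7 CPM, and EA A, B and C had 48.7, 14.3 and 14.2 CPM. Every model and EA sample therefore lay above every control, and the 2 model values were closer to each other than in any other member but Inpp5d. The mean was 8.79 ± 1.22 CPM in the controls (SD, n = 3) and 22.3 ± 0.85 CPM in the model (SD, n = 2), a log2 difference of 1.34 (SE 0.52) with an edgeR adjusted p of 0.319. Fitted on the control and model samples only, its adjusted p was 0.0331, and 1.95% of all genes were called.

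Csf1r encodes the receptor for CSF1 and IL-34 on which microglia depend for survival. It measured 46.9, 42.9 and 56.3 CPM in the controls, 127 and 72.6 CPM in the model samples, and 221, 73.1 and 54.5 CPM in the EA samples. Both model samples were above the controls, and EA C lay within the control range. The log2 difference from the controls was 1.03 in the model (SE 0.56, edgeR adjusted p = 0.444). Selplg encodes PSGL-1, a selectin ligand of myeloid cells. Its level was 10.2, 7.05 and 10.7 CPM in the controls, 14.2 (A) and 23.3 (B) CPM in the model samples, and 78.9, 27.1 and 11.5 CPM in the EA samples. It was one of 3 members, with Mertk and Inpp5d, that were lower in model A than in model B. EA A was 5.55 times model A for Selplg, the widest such ratio among the members.

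The other 5 homeostatic genes were also highest in EA A. Cx3cr1, the fractalkine receptor, ranged from 3.87 CPM in control B to 14.8 CPM in EA A. P2ry12, the ADP receptor that guides microglial processes, ranged from 11.1 to 60.1 CPM, and the related P2ry13 from 3.27 to 18.5 CPM. Gpr34, a lysophosphatidylserine receptor, ranged from 6.86 CPM in EA C to 27.7 CPM in EA A, and Olfml3, a secreted protein of microglia, from 3.01 CPM in model B to 7.72 CPM in EA A. Their model against control log2 differences lay between 0.35 (Olfml3) and 0.84 (P2ry13). Groups overlapped for P2ry12 and Olfml3 and did not for the other 3.

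**Figure D2:**
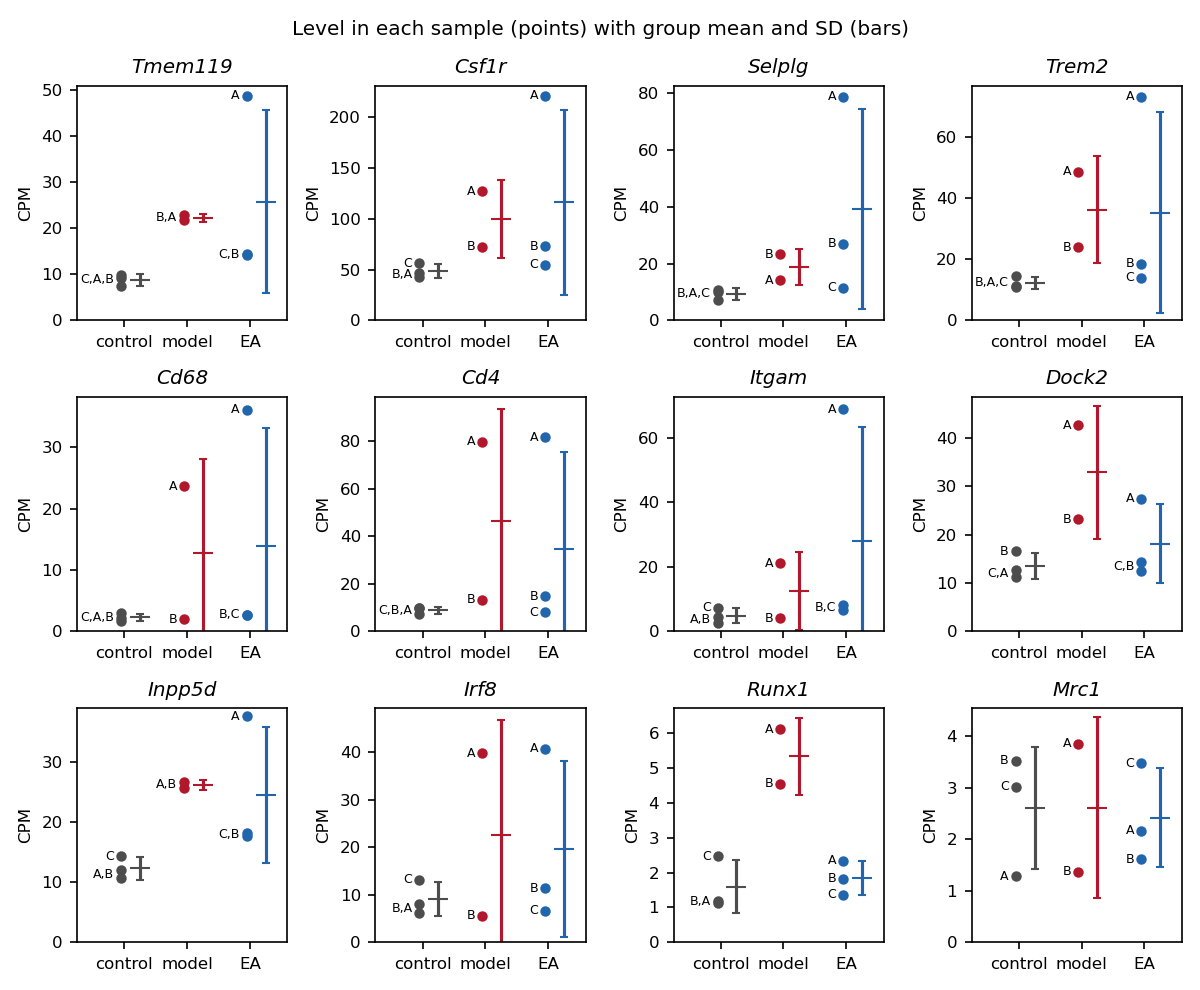
Level in CPM of 12 members in each sample (points, lettered by sample) with the group mean and SD (bars beside them; n = 3 controls, 2 model, 3 EA); each panel starts at 0 and an SD bar that would pass below 0 stops there. Tmem119 and Inpp5d have 2 close model values above every control, whereas Cd68, Cd4, Itgam and Irf8 are high mainly in model A and EA A.

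The genes of sensing and phagocytosis had a larger median difference, 1.39, and more of it came from model A. All 8 were higher in the model mean, and in 4 (50%, against 18.2% of all tested genes) the groups did not overlap. Trem2, the receptor for lipids and debris shown above by its promoter, measured 11.3, 10.9 and 14.7 CPM in the controls, 48.7 and 23.9 CPM in the model samples and 73.2, 18.5 and 14.0 CPM in the EA samples. Both model samples and EA A and B exceeded the controls, and EA C lay inside their range. The model mean was 2.95 times the control mean, a log2 difference of 1.56 (SE 0.68, edgeR adjusted p = 0.364).

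Tyrobp and Fcer1g encode adaptors that carry the signal of TREM2 and of Fc receptors. Tyrobp measured 12.6 to 21.8 CPM in the controls, 66.1 and 23.6 CPM in the model samples and 73.0, 20.7 and 20.2 CPM in the EA samples. Fcer1g measured 34.7 to 46.0 CPM in the controls, 142 and 50.4 CPM in the model samples and 151, 44.8 and 43.8 CPM in the EA samples. For both genes model A and EA A were near each other and far above the rest, and EA B and C were within the control range. Fcgr2b, the inhibitory receptor for IgG, rested on fractional count estimates; it measured 2.20 to 3.12 CPM in the controls, 9.38 and 5.25 CPM in the model samples and 30.2, 4.34 and 2.95 CPM in the EA samples.

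Ly86, the partner of a Toll-like receptor homologue, measured 3.48, 2.73 and 5.22 CPM in the controls, 16.7 and 4.43 CPM in the model samples and 14.1, 5.06 and 4.43 CPM in the EA samples. Only model A and EA A were clear of the control range. Its log2 difference in the model was 1.46 (SE 0.68, edgeR adjusted p = 0.394). Cd68, a lysosomal glycoprotein of phagocytes, had the largest fitted difference and the largest error. It measured 2.11, 2.96 and 1.74 CPM in the controls, 23.6 and 1.97 CPM in the model samples and 36.1, 2.72 and 2.74 CPM in the EA samples. Model B, EA B and EA C lay within the control range, so that the difference of 2.5 (SE 1.36, edgeR adjusted p = 0.448) came from model A alone.

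Cd14, the co-receptor for lipopolysaccharide, and Mertk, a receptor for apoptotic cells, did not follow the others. Cd14 measured 3.12, 2.73 and 3.85 CPM in the controls, 6.59 and 3.23 CPM in the model samples and 3.12, 1.87 and 2.95 CPM in the EA samples. All 3 EA samples lay below both model samples, EA A included. Mertk measured 1.47 to 3.30 CPM in the controls, 2.36 (A) and 5.31 (B) CPM in the model samples, and 10.8, 3.44 and 3.58 CPM in the EA samples, so that its higher model value was in model B.

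Of the 6 roles, the adhesion and leukocyte surface genes had the highest mean difference from the controls in model A and in EA A. All 7 were higher in the model mean, with a median of 1.28, and in 5 (71.4%, against 18.2% of all tested genes) the groups did not overlap. Averaged over the 7 genes, the log2 difference from the control mean was 1.86 in model A, 0.37 in model B, 2.65 in EA A, 0.50 in EA B and 0.08 in EA C. Itgam encodes the alpha chain and Itgb2 the beta chain of complement receptor 3, the integrin known as CD11b/CD18. Itgam measured 2.66, 4.55 and 7.33 CPM in the controls, 21.1 and 4.05 CPM in the model samples and 68.9, 6.76 and 8.12 CPM in the EA samples. Model B was within the control range and EA A was 3.26 times model A. Its log2 difference in the model was 1.37 (SE 1.13, edgeR adjusted p = 0.612), and −0.26 without model A. Itgb2 had the same order at the top, with 25.5 CPM in model A and 89.4 CPM in EA A, and 6.69 to 13.3 CPM in the other 6 samples.

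Rat microglia and macrophages carry CD4, which in the immune system is otherwise a marker of helper T cells. Cd4 measured 9.81, 9.66 and 7.24 CPM in the controls, 79.8 and 13.3 CPM in the model samples and 81.5, 14.7 and 8.12 CPM in the EA samples. Both model samples exceeded the controls, model B by far less than model A, and EA C lay within the control range. The log2 difference was 2.39 (SE 1.04, edgeR adjusted p = 0.370). The T cell genes Cd3d and Cd3g were at 0.211 CPM or less in every sample. Cd3e differed from them and from Cd4: it measured 29.4, 21.1 and 8.15 CPM in the controls, 0.0536 and 0.219 CPM in the model samples and 0.954, 6.84 and 10.2 CPM in the EA samples, so that it was lowest in both model samples and EA A. Lck, the other lymphocyte gene that passed the filter, measured 1.56, 2.05 and 1.74 CPM in the controls, 2.36 and 2.63 CPM in the model samples and 0.954, 1.66 and 2.21 CPM in the EA samples, with both model samples above every control. Cd8a was at 1.34 CPM in model A and at 0.367 CPM or less elsewhere. Cd2, with 27 counts over all samples, measured 0.09, 0.11 and 0.09 CPM in the controls and 0.32 and 0.44 CPM in the model samples. In EA A, B and C it was at 0.43, 0.09 and 0.32 CPM.

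Cd53, a tetraspanin of leukocytes, measured 14.2, 9.66 and 11.8 CPM in the controls, 45.2 and 19.2 CPM in the model samples and 69.2, 18.4 and 11.5 CPM in the EA samples. Its groups did not overlap between model and control, and its log2 difference was 1.43 (SE 0.72, edgeR adjusted p = 0.415). Ptprc, which encodes the common leukocyte antigen CD45, measured 2.5 to 3.21 CPM in the controls, 10.9 and 2.85 CPM in the model samples and 15.9, 4.34 and 3.06 CPM in the EA samples. Model B and EA C were therefore at control level for Ptprc. Laptm5, a lysosomal protein of blood-lineage cells, measured 16.1 to 24.9 CPM in the controls and 51.5 and 30.1 CPM in the model samples. Csf3r, the receptor for G-CSF, measured 6.96 to 8.30 CPM in the controls and 18.2 and 9.31 CPM in the model samples, with 17.4, 7.74 and 5.17 CPM in the EA samples.

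In all 4 signalling genes both model samples lay above every control, as in 18.2% of all tested genes. Their median log2 difference was 1.05, from 0.84 to 1.28. Dock2, which activates the small GTPase Rac in migrating leukocytes, measured 12.7, 16.6 and 11.4 CPM in the controls, 42.6 and 23.2 CPM in the model samples and 27.5, 14.3 and 12.6 CPM in the EA samples. EA B and C were inside the control range, and EA A lay between the 2 model samples. The difference in the model was 1.28 (SE 0.40, unadjusted p = 0.0128, edgeR adjusted p = 0.234). Inpp5d encodes SHIP1, the lipid phosphatase that restrains signalling from TREM2 and Fc receptors. Its level was 10.6, 11.9 and 14.3 CPM in the controls, 25.6 and 26.7 CPM in the model samples and 37.6, 18.1 and 17.7 CPM in the EA samples. Like Tmem119, it was higher in all 5 model and EA samples than in every control, with 2 close model values. Its difference in the model was 1.09 (SE 0.34, unadjusted p = 0.0130, edgeR adjusted p = 0.235), and 1.12 without model A and EA A, where its adjusted p was 0.0197 and 8.57% of all genes were called.

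Aif1 encodes IBA1, the actin-binding protein most often stained to show microglia. It measured 25.3 to 32.2 CPM in the controls, 80.8 and 35.3 CPM in the model samples and 61.3, 29.2 and 25 CPM in the EA samples, with EA B inside and EA C just below the control range. Apbb1ip, an adaptor that links Ras-family GTPases to integrins, measured 9.55 to 16.4 CPM in the controls, 24.5 and 19.4 CPM in the model samples and 31.8, 17.7 and 14.8 CPM in the EA samples.

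Among the lineage transcription factors, Runx1 differed from Spi1 and Irf8. Runx1 measured 1.19, 1.14 and 2.47 CPM in the controls, 6.11 and 4.54 CPM in the model samples and 2.34, 1.83 and 1.37 CPM in the EA samples. Both model samples stood above all 6 others, and all 3 EA samples lay within the control range. It had the smallest adjusted p of any member in the model against control comparison, with a log2 difference of 1.72 (SE 0.45, unadjusted p = 0.00533, edgeR adjusted p = 0.184). Its counts are fractional estimates in 10 of 11 columns. Irf8 measured 8.06, 6.25 and 13.2 CPM in the controls, 39.8 and 5.58 CPM in the model samples and 40.8, 11.4 and 6.64 CPM in the EA samples. Model B lay below every control, so the fitted difference of 1.3 (SE 0.94, edgeR adjusted p = 0.561) became −0.72 without model A. Spi1, which encodes PU.1, measured 6.14, 6.37 and 12.2 CPM in the controls, 19.2 and 7.12 CPM in the model samples and 19.1, 8.76 and 5.70 CPM in the EA samples. Model B was inside the control range for Spi1, as was EA B.

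The 2 scavenger receptors of border macrophages had overlapping levels in the 3 groups. Cd163, which takes up hemoglobin complexes, measured 0.642, 0.909 and 0.916 CPM in the controls, 1.12 and 0.657 CPM in the model samples and 0.868, 0.425 and 0.738 CPM in the EA samples. Mrc1, the mannose receptor CD206, measured 1.28, 3.52 and 3.02 CPM in the controls, 3.86 and 1.37 CPM in the model samples and 2.17, 1.61 and 3.48 CPM in the EA samples. The model differences were 0.12 (SE 0.52) for Cd163 and 0.01 (SE 0.62) for Mrc1, with edgeR adjusted p-values of 0.936 and 0.996.

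**Figure D3:**
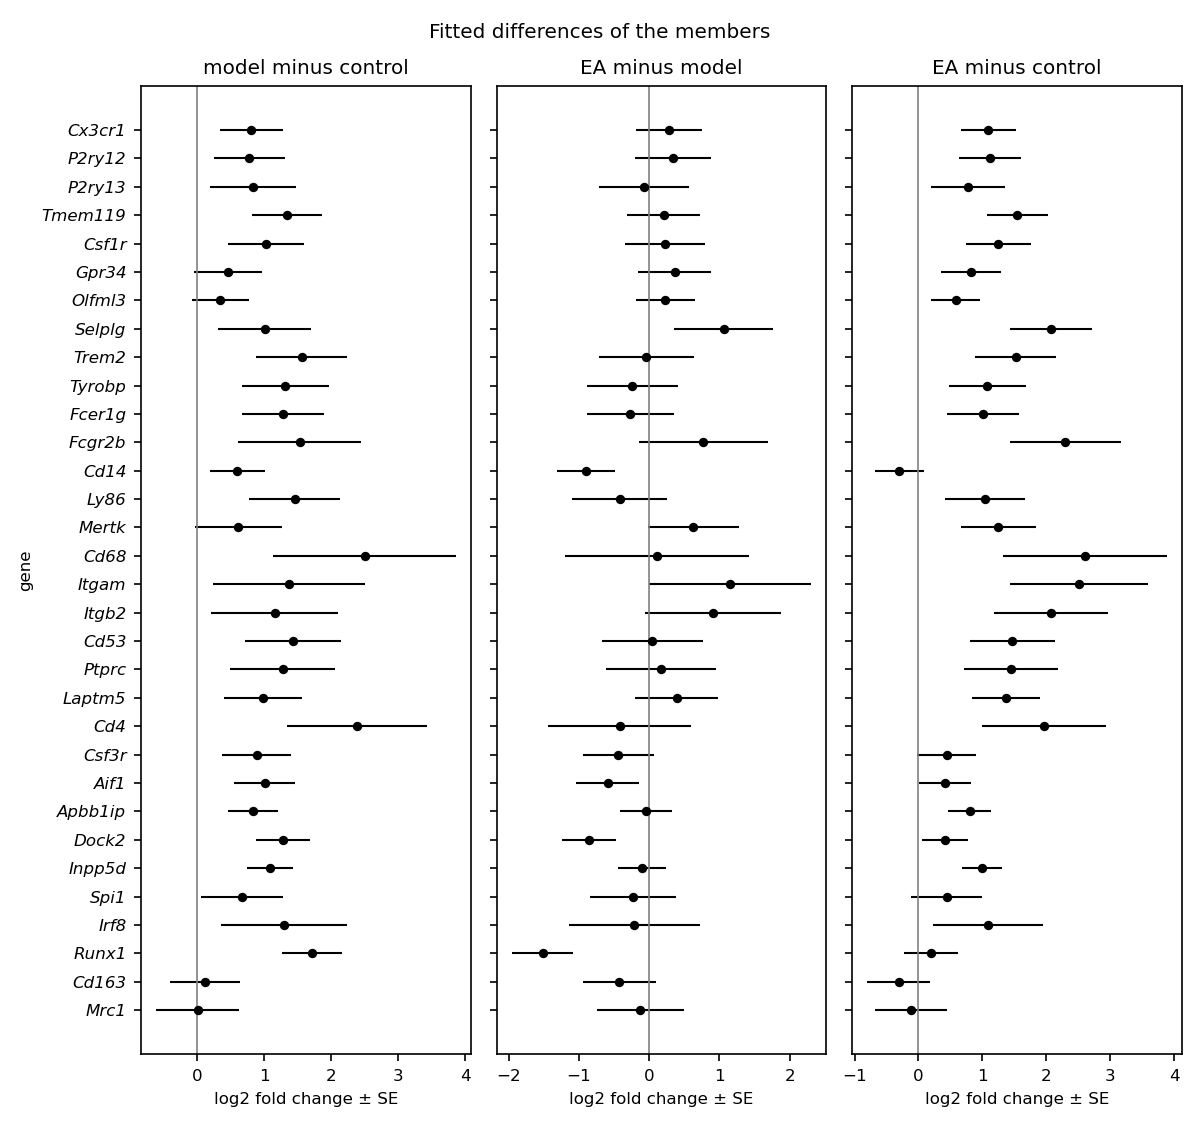
Fitted log2 difference of each member with its standard error in the model against control, EA against model and EA against control comparisons, members grouped by role. All 32 model against control estimates lie above 0, from 0.01 to 2.5, whereas the EA against model estimates fall on both sides of 0, from −1.52 to 1.15.

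Between the EA and model groups no member passed the test, and the members did not share a direction. Of the 32, 15 were higher and 17 lower in the EA mean, with a median log2 difference of −0.04 against 0.03 over all tested genes. By edgeR 0 members were called, and 0% of all tested genes were. At an unadjusted p under 0.05, 0 members were higher and 1 was lower, which is 3.12% of the members against 13.5% of all tested genes in either direction. DESeq2 also called 0 members, and 698 genes in all (4.51%). No member was higher in all 3 EA samples than in both model samples, against 12.9% of all tested genes, and 2 (6.25%) were lower in all 3, against 11.7%.

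Runx1 and Cd14 were those 2 members. Runx1 was lower in the EA group by a log2 difference of −1.52 (SE 0.44, unadjusted p = 0.00941, edgeR adjusted p = 0.218), and Cd14 by −0.90 (SE 0.41, edgeR adjusted p = 0.407). EA A, the sample with the highest level for most members, was below model A for both. With all 11 columns taken as separate libraries, which counts the near-identical columns more than once, Runx1 was the 1 member called of 31, with an edgeR adjusted p of 0.0171, and 10.9% of all genes were called. The 3 transcription factors and the 4 signalling genes all had lower EA means, with medians of −0.23 and −0.34. Of the 8 homeostatic genes 7 had higher EA means, with a median of 0.25, and Selplg had the largest, 1.06 (SE 0.71, edgeR adjusted p = 0.586). Itgam had the largest of all members, 1.15 (edgeR adjusted p = 0.741).

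The sign of the member median in this comparison rested on single samples. Without EA A the median was −0.86 and 1 of the 32 members was higher in the EA group. Without model A the median was 0.68 and 28 were higher. It was −0.46 without model B, 0.18 without EA B and 0.33 without EA C. Without both model A and EA A it was −0.21, and 11 of the 31 members tested were higher.

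The highest value was in EA A for 23 members and in model A for the other 9. Averaged over all members, EA A lay 1.87 log2 units above the control mean, EA B 0.40 and EA C 0.08. EA A exceeded every control in 28 members, EA B in 17 and EA C in 7, where 38.8%, 27.1% and 25.2% of all tested genes did so. At least 2 times the control mean was reached by 28 members in EA A, 2 in EA B and 0 in EA C, again with no share of all tested genes given. EA A was above model A in 23 members, by up to 5.55 times for Selplg, 4.6 for Mertk and 3.51 for Itgb2. It was below model A most for Runx1 (0.384 times), Cd14 (0.474), Mrc1 (0.562) and Dock2 (0.645). The 2 samples thus shared high levels of most members but not the same balance between roles.

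Against the controls, the EA group had higher means for 29 of the 32 members, with a median log2 difference of 1.09 against 0.01 over all tested genes. By edgeR 0 members were called and 0% of all tested genes were; DESeq2 also called 0 members. At an unadjusted p under 0.05, 9 members were higher and 0 lower, or 28.1% of the members against 3.66% of all tested genes. In 5 members (15.6%), Tmem119, Selplg, Mertk, Laptm5 and Inpp5d, all 3 EA samples lay above all 3 controls, against 5.98% of all tested genes. Without EA A the median was 0.33, and without both model A and EA A it was 0.34, with 24 of the 31 members tested higher. This comparison shares its controls with the model against control comparison and its EA samples with the one above. Cd14, Cd163 and Mrc1 were the 3 members with lower EA means, by −0.30, −0.31 and −0.12.

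Across the 8 samples most members had similar profiles, and in 24 of the 32 the 2 highest values were those of model A and EA A, as in 14.4% of all tested genes. The log2 level of each member correlated with the mean of the other 31 by a Pearson r of 0.99 for Trem2 and Csf1r and of 0.75 or more for 27 members. The 5 lowest were Mrc1 (0.10), Cd163 (0.38), Cd14 (0.42), Runx1 (0.58) and Mertk (0.60). These coefficients describe 8 samples that share 2 high ones. Among 14780 other genes, the 3 whose log2 level was most like the mean of the members were Dapp1 (r = 0.9964), an adaptor of lipid signalling, Ctsz (r = 0.9948), a lysosomal protease, and Sall3 (r = 0.9930), a transcription factor. Ctsz measured 10.3 to 15.9 CPM in the controls, 51.7 and 16.4 CPM in the model samples and 69.8, 17.6 and 13.7 CPM in the EA samples.

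Ligands of the members' receptors showed no common direction. Of 11 listed, 10 were in the table and 9 were tested, of which 6 were higher and 3 lower in the model. Tgfb1, counted among the higher ones with a log2 difference of 1.22, has no receptor among the members. By edgeR 0 were called, and 1 higher and 1 lower had an unadjusted p under 0.05 (22.2%, against 13.8% of all tested genes). DESeq2 called 1, Il16, as lower, and 4.93% of all tested genes. Il34, the second ligand of the CSF1 receptor, measured 33.4, 29.9 and 40.2 CPM in the controls, 53.5 and 55.1 CPM in the model samples and 37.5, 46.4 and 27.1 CPM in the EA samples. Both model samples exceeded all others, by a log2 difference of 0.65 from the controls (SE 0.23, edgeR adjusted p = 0.286) and with −0.55 from the model to the EA group (SE 0.23, edgeR adjusted p = 0.365). Il16, a cytokine that binds CD4, went the other way, with 25.8, 29.0 and 22.6 CPM in the controls, 7.39 and 4.54 CPM in the model samples and 9.89, 19.9 and 25.5 CPM in the EA samples. Its log2 difference in the model was −2.11 (SE 0.42, edgeR adjusted p = 0.137), the reverse of Cd4.

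Other signalling genes of myeloid cells resembled the members. Of 22 tested, 21 were higher in the model, with a median log2 difference of 0.80. By edgeR 0 were called and 5 had an unadjusted p under 0.05, all higher (22.7%, against 13.8% of all tested genes in either direction). DESeq2 called 1, Plcg2, as higher, and 4.93% of all tested genes. Was, the actin regulator mutated in Wiskott-Aldrich syndrome, measured 1.10, 1.48 and 1.19 CPM in the controls, 7.72 and 2.63 CPM in the model samples and 7.20, 1.91 and 2.21 CPM in the EA samples. All 5 model and EA samples were above the controls. Plcg2, a phospholipase downstream of TREM2, had a pattern of its own, at 67.7 CPM in model B and at 2.27 to 6.25 CPM in the other 7 samples. Its adjusted p in the model by edgeR was 0.170.

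Of 17 further microglial genes 16 were tested, and 15 were higher in the model, with a median log2 difference of 0.85. By edgeR 0 were called and 1 had an unadjusted p under 0.05 (6.25%, against 13.8% of all tested genes). DESeq2 called 1, Sall1, as higher, and 4.93% of all tested genes. Ncf1, a subunit of the phagocyte oxidase, measured 13.7, 12.6 and 12.8 CPM in the controls, 46.0 and 18.2 CPM in the model samples and 39.6, 15.1 and 11.1 CPM in the EA samples. Sall1, a transcription factor that among brain macrophages marks microglia, measured 18.4, 16.3 and 19.9 CPM in the controls, 45.4 (A) and 102 (B) CPM in the model samples, and 63.9, 28.9 and 16.4 CPM in the EA samples. Sall1 was thus higher in model B than in model A, the reverse of the order in 29 of the 32 members. Its log2 difference in the model was 2.02 (SE 0.55, edgeR adjusted p = 0.188).

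Genes of phagocytes that respond to injury were split. Of 14 listed, 12 were tested, and 10 were higher in the model and 2 lower, with a median log2 difference of 1.22. By edgeR 0 were called, and 4 higher and 1 lower had an unadjusted p under 0.05 (41.7%, against 13.8% of all tested genes). DESeq2 called 3, Igf1 and Spp1 as higher and Lpl as lower, and 4.93% of all tested genes. Spp1 was at 32.5 CPM in model A but at 0.219 CPM in model B, below every control (0.55 to 1.02 CPM). Their mean lay 1.49 log2 units above the controls in model A, at −0.35 in model B and at 1.21 in EA A. Igf1, a growth factor that activated microglia can produce, measured 12.7, 11.2 and 8.89 CPM in the controls, 48.4 and 16 CPM in the model samples and 14.2, 11.5 and 11.8 CPM in the EA samples. EA A was not high for Igf1, and its log2 difference was 1.56 in the model (SE 0.41, edgeR adjusted p = 0.187) and −1.36 from the model to the EA group (SE 0.41, edgeR adjusted p = 0.230). Lpl, lipoprotein lipase, which neurons of the hippocampus also express, was lower, with 30.5, 15.0 and 27.6 CPM in the controls, 6.64 and 2.35 CPM in the model samples and 19.4, 26.4 and 14.2 CPM in the EA samples.

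Further border macrophage genes gave 7 in the table and 6 tested of 10 listed, 5 higher and 1 lower in the model, with a median log2 difference of 0.55. By edgeR 0 were called and 2 had an unadjusted p under 0.05, both higher (33.3%, against 13.8% of all tested genes in either direction). DESeq2 called 1, Siglec1, as higher, and 4.93% of all tested genes. Siglec1, a sialic acid receptor of macrophages, measured 1.28, 1.25 and 1.83 CPM in the controls, 4.71 and 3.45 CPM in the model samples and 2.26, 1.40 and 1.79 CPM in the EA samples. Lyve1, a hyaluronan receptor that lymphatic endothelium also carries, measured 13.8, 17.4 and 9.71 CPM in the controls, 33.1 and 16.3 CPM in the model samples and 9.72, 8.93 and 12 CPM in the EA samples. Like Runx1, Siglec1 was high in both model samples and not in EA A. Its log2 difference was 1.48 in the model (SE 0.38, edgeR adjusted p = 0.182) and −1.17 from the model to the EA group (SE 0.37, edgeR adjusted p = 0.246).

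Markers of blood leukocytes were checked in the same samples. Of 12 lymphocyte genes, all in the table, 9 stayed under 1 CPM in every sample and 2 passed the filter, and their summed level was 11.0 to 33.4 CPM in the controls, 4.33 to 6.16 CPM in the model and 4.42 to 13.9 CPM in the EA group. Cd3e made up most of the control sum. The neutrophil genes Mmp8, Mpo and Cxcr2 were at 0.367 CPM or less in every sample. The 5 monocyte and neutrophil genes that passed the filter summed to 40.4 to 76.0 CPM in the controls, 75.7 to 112 CPM in the model and 46.1 to 114 CPM in the EA group. Most of this sum came from Lyz2, which microglia also express. Lyz2 measured 42.2, 34.1 and 67.6 CPM in the controls, 103.5 and 67.4 CPM in the model samples and 108, 59.3 and 43.8 CPM in the EA samples. Its highest values were thus in EA A and model A, as in most members. The neutrophil gene S100a9 measured 3.18 to 4.31 CPM in the controls, 3.38 and 3.23 CPM in the model samples and 0.738 to 4.93 CPM in the EA samples, without the high values of model A and EA A seen in the members. Of 12 monocyte and neutrophil genes listed, 11 were in the table. Ccr2, the monocyte chemokine receptor, was not found there under that symbol.

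**Figure D4:**
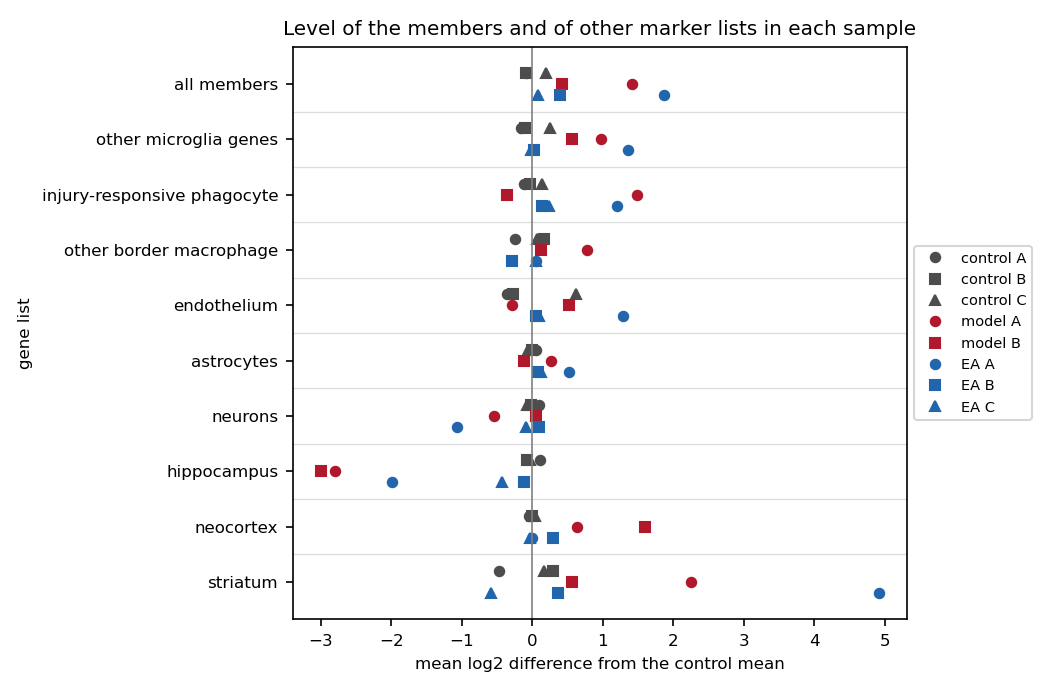
Mean log2 difference of CPM from the control mean in each of the 8 samples, for all members together and for other gene lists. The other lists are further microglial, injury-responsive phagocyte and further border macrophage genes, and markers of endothelium, astrocytes, neurons, hippocampus, neocortex and striatum. The members averaged 1.42 in model A and 1.87 in EA A, the striatal markers 2.26 and 4.92 in the same samples, and the hippocampal markers −2.79 in model A, −3.0 in model B and −1.99 in EA A.

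Markers of other brain cells were measured in the same samples. In mean log2 difference from the controls, 8 astrocyte markers lay at 0.27 in model A, −0.12 in model B and 0.52 in EA A. For 8 neuronal markers the values were −0.54, 0.06 and −1.07, and for 8 oligodendrocyte markers −0.42, −1.35 and −0.30. The 7 endothelial markers measured lay at −0.29, 0.52 and 1.29. The astrocyte and striatal means were above 0 in both samples with high microglial levels, and the neuronal means were below 0 in both, while the endothelial mean was above 0 in EA A only of the 2. Whether the cell types or regions sampled account for the levels of the microglial genes was not tested.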

How the data were processed

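The table holds expected counts that the authors deposited, whole numbers in 70.5% to 72.1% of the values of a column and fractional estimates elsewhere. The submitters' processing notes name, with no role, the tools DESeq2 1.16.1, featureCounts 1.5.0-p3, HISAT2 2.0.5 and StringTie 1.3.3b. The genome build and strand setting were not given in the sources used here. Of the members, 20 had only whole values. The libraries carried molecular identifiers per the labels' protocols; how they were used is not given.

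Near-identical columns (counts differing by under 2 times the sampling variance) were summed, values were rounded, and genes were filtered by filterByExpr. All 8 samples were fitted with edgeR 4.0.16 (R 4.3.3; TMM, robust quasi-likelihood; 5 residual degrees of freedom, biological coefficient of variation 36.8%), and a call is an adjusted p under 0.05. Sample totals ran from 9335913 to 23835724 counts. Log2 levels used a prior of 0.5 CPM. Alternatives were DESeq2 1.42.0, other scalings and filters, fewer groups, unsummed columns and samples left out; leaving out model A and EA A together was chosen after seeing the data.

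The members and lists were chosen with earlier results of these data known. By rule 15 members were described sample by sample. They were the 2 per role with the smallest p in model against control and the 1 in EA against model. Sample values are also given for other members, among them Cd68 and Spi1, outside this rule. Further lists give the 2 with the smallest p in model against control. Leukocyte and region markers named alone were chosen after their values were seen. Column names gave the group of a column but not its labelled sample.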

Additional observations from a re-analysis of the deposited data

How the results depend on the processing

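The model against control comparison called 1 gene in all, 0 with total counts for scaling, 763 with DESeq2's test, 294 when only those 2 groups were fitted, 1129 with all columns as separate libraries and 1333 without both model A and EA A; leaving out 1 sample gave 0 to 565, with 356 without model A and 565 without EA A. DESeq2 called 1 of 32 members (Runx1), against 4.93% of all genes. The 2 groups alone gave 1 of 32 (Tmem119), against 1.95% of all genes. With all columns 3 of 31 were called (Dock2, edgeR adjusted p = 0.0497, Inpp5d, 0.0365, and Runx1, 0.0216), against 7.37% of all genes. Without EA A 3 of 32 were called, against 3.7% of all genes. Leaving out 1 control, EA B or EA C gave 0 called members. EA against model called 698 genes with DESeq2, 1666 with all columns, 1104 without both and 0 to 308 with 1 sample left out (308 without model A, 278 without EA A), and all columns gave 1 called member. EA against control called 1 gene with DESeq2. Scaling by total counts moved the median of all genes in model against control from 0.02 to 0.13 and that of the members to 1.18.

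The number of members higher in EA against model ran from 1 to 28 with 1 sample left out, and their median from −0.86 to 0.68. The median in EA against control ran from 0.33 to 1.41 and was 0.34 without both. Among the 15 members chosen by rule, 11 of 234 model against control values, 28 of 234 EA against model values and 6 of 233 EA against control values changed sign. Without both model A and EA A, model against control gave −0.01 for Cd14, −0.26 for Itgam, −0.72 for Irf8 and −0.92 for Mrc1. EA against model then gave −0.60 for Tmem119, −0.18 for Csf1r, −0.25 for Selplg, 0.11 for Ly86, −0.34 for Cd53, 0.71 for Irf8 and 0.84 for Mrc1, and EA against control −0.01 for Irf8. All columns as separate libraries gave −0.12 for Cd53 in EA against model.

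With 1 sample left out, model against control ran from −0.32 to 0.44 for Cd163, −0.93 to 0.56 for Mrc1, −0.01 to 1.02 for Cd14, −0.26 to 2.11 for Itgam and −0.72 to 2.11 for Irf8. EA against model ran from −1.15 to 0.55 for Trem2, −1.14 to 0.82 for Ly86, −2.0 to 1.38 for Cd4, −1.30 to 1.81 for Irf8, −0.76 to 0.01 for Cd163, −0.68 to 0.80 for Mrc1, −0.64 to 0.67 for Csf1r, −1.09 to 0.78 for Cd53, −0.64 to 0.49 for Tmem119, −0.75 to 2.78 for Itgam and −0.54 to 0.09 for Inpp5d. EA against control ran from −0.45 to 0.15 for Mrc1, −0.01 to 0.64 for Dock2 and −0.01 to 1.51 for Irf8. The cause of these changes was not tested. Where the model group was left with 1 sample, that sample was assumed to vary like the other groups.

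No paired analysis was possible because the columns could not be tied to the numbered labelled samples and near-identical columns carried different numbers. Cd163, at about 1 CPM, was not tested under every alternative. With a filter of at least 5 CPM in 2 samples only 28 members were tested. Runx1, Cd14, Mrc1 and Cd163 were left out there. Each group had 2 or 3 samples of at least 9335913 counts, and the coefficient of variation between samples was 36.8%; the effect of depth on the calls was not tested.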
